A study of Arabidopsis thaliana with 12 samples.

Results

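Chloroplast-encoded transcripts are the RNAs made from the chloroplast's own genome, and their rows in the count table carry locus numbers that start with ATCG. The table holds 133 such rows, and the 81 with a mean of at least 10 counts over the 12 libraries are described here. The libraries came from leaf 7 (L07, old, fully expanded) and leaf 12 (L12, young) of Arabidopsis thaliana plants of the Col-0 accession, 4 to 5 weeks old, with 3 replicates of each leaf and treatment. Plants were sprayed either with a mock solution or with 500 µM of the stress hormone abscisic acid (ABA), and leaves were taken 48 h later. Both solutions held 0.5% ethanol and Tween20, so the mock groups had received the solvent and detergent as well. The data address whether the response to ABA depends on leaf age.

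The chloroplast genome encodes core subunits of both photosystems, of the cytochrome b6f complex, of the ATP synthase and of an NADH dehydrogenase-like (NDH) complex, as well as the large subunit of Rubisco, ribosomal proteins and an RNA polymerase. Most of the other subunits of these complexes are encoded in the nucleus and imported. Chloroplast genes are transcribed in clusters of neighbouring genes, and their mRNAs, unlike those of nuclear genes, do not end in a long stable poly(A) tail. A short tail on a chloroplast RNA is known as a mark for decay. The libraries were selected for polyadenylated RNA, so every value below is the level of captured transcript, which need not be the level of total transcript. As these are bulk leaf samples, fewer chloroplasts or cells and less RNA in each cannot be told apart.

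The names used below are the established names of the locus numbers at TAIR, the Arabidopsis database, since neither the count table nor the reference annotation pairs these numbers with names. They were written down by hand for 86 of the 133 rows and name 72 of the 81 members. Of the 86, 84 could be placed on the chloroplast genome of TAIR10.1, and the order of the numbers followed the order of the genes at all but 1 neighbour, the trans-spliced rps12 (ATCG00065). Notes on nuclear genes in the annotation describe 6 of the numbers, and 5 of these notes give the same product as the name used here. The note on ATCG00430 calls it photosystem II protein G, an older name of the gene that is now ndhK. The 9 members with no name (ATCG00030, ATCG00090, ATCG00100, ATCG00200, ATCG00290, ATCG00400, ATCG00450, ATCG00620 and ATCG00950) are given no role.

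Because poly(A) selection binds runs of A, the longest such run was looked up in each of the 72 named members, on the coding strand and including 150 bases after the gene (sequence from RefSeq, TAIR10.1). The runs of the most abundant transcript, of 3 transcripts that differed by leaf age and of 2 abundant transcripts with short runs are shown, 5′ to 3′, with the run in capitals.
psbM: ttactatcAAAAAAAAAAAAAgatttcaa
rpoA: aacctaagAAAAAAAAAAAAAAcaaaagaa
rpl16: agcaactgAAAAAAAAAAAgaataaag
ycf1: aaatggagAAAAAAAAAAAAAtactcttt
rbcL: ttagatagAAAAAAAactcttca
psbA: agtttagtAAAAAAcgagcaat
The run of psbM (Pltd:28665-28693, minus strand) lies downstream of its coding sequence, and those of rpoA (Pltd:78087-78116), rpl16 (Pltd:82446-82472) and ycf1 (Pltd:125860-125888), all on the minus strand, lie within the gene. The runs of rbcL (Pltd:56533-56555, plus strand) and psbA (Pltd:338-359, minus strand) lie downstream. A run of at least 10 A (AAAAAAAAAA, coding strand only) was present in 14 of the 72 members (19.4%), against 62 of the 1028 windows of 300 bases that tile both strands of the chloroplast genome (6.03%). Most members are not of the length of these windows, and over all coding genes taken in the same way 15 of 83 held such a run (18.1%), while the 300 bases around the gene end held one in 6 of 83 (7.23%). Per kilobase of gene, the median CPM (counts relative to the scaled library size) was 12.0 in members with such a run. It was 26.2 in the 58 members without one. Members with a run were longer, with a median gene length, introns included, of 1465.5 against 411.0 bases. Of the 10 members with the highest CPM, not divided by length, psbM, ycf1, rpl16 and atpB held such a run. The others (psbA, rbcL, atpE, rpl32, rpl14 and rps3) did not. Whether a run adds to the capture of a transcript was not tested.

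The 12 libraries held between 11811137 and 21485394 counts on genes, of which 0.327% to 0.665% fell on chloroplast rows. By replicate 1, 2 and 3, this share was 0.373%, 0.482% and 0.565% in mock L07, 0.410%, 0.327% and 0.409% in ABA L07, 0.638%, 0.665% and 0.489% in mock L12, and 0.445%, 0.550% and 0.468% in ABA L12. The 95% Wilson intervals were at most 0.00395 percentage points to either side, and cover counting error only. The means were 0.473% ± 0.096 (SD, n = 3) in mock L07 and 0.382% ± 0.048 in ABA L07, and 0.597% ± 0.095 in mock L12 and 0.488% ± 0.055 in ABA L12. The groups overlapped between mock and ABA in both leaf ages, and between the ages under mock, but not between the ages under ABA (0.327% to 0.410% in L07 and 0.445% to 0.550% in L12). Mitochondrial rows, which were captured in the same way, took 0.0098% to 0.0234% of the counts.

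Libraries with the same label differed in their make-up. Across 18179 nuclear genes, the deviation of each library from the mean of all libraries was correlated with transcript length, with Spearman's rho of -0.29, -0.49 and -0.60 in mock L07, 0.20, -0.08 and -0.54 in ABA L07, 0.23, 0.55 and -0.35 in mock L12, and 0.57, 0.58 and 0.47 in ABA L12. Thus all 3 old mock libraries were poor in long transcripts and all 3 young ABA libraries were rich in them, and this length measure moved with both leaf age and treatment. Of the tissue markers, those of mesophyll were high in all groups (CAB2, a light-harvesting protein, 1454 to 18847 CPM), those of guard cells lay between 0.627 and 22.3 CPM, and 4 of the 5 markers of shoot meristem, petal and root were at or near 0 (at most 0.16 CPM), the other being SHR (2.51 to 10.4 CPM). The mesophyll marker CA1, a carbonic anhydrase, stood at 2038 to 3372 CPM in mock L07 against 249 to 523 CPM in ABA L07, and at 2075 to 4417 CPM in mock L12 against 1245 to 1625 CPM in ABA L12. For CAB2 the mock and ABA levels were 8319 to 18847 and 1454 to 3260 CPM in L07. In L12 they were 7109 to 17846 and 2484 to 5045 CPM. The other mesophyll marker, RBCS1A, was lower with ABA without overlap in L12 only. Of the guard cell markers, MYB60 was lower with ABA without overlap in both ages, KAT1 in L07 only, and FMA in neither. The part of these markers in the ABA comparisons was not tested. Between the ages, the epidermal marker ATML1 stood at 18.3 to 39.5 CPM in mock L07 against 44.01 to 73.5 CPM in mock L12, and the guard cell marker MYB60 at 2.86 to 5.37 against 6.37 to 11.4 CPM, both without overlap. Their part in the leaf-age comparison was not tested.

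**Figure D1:**
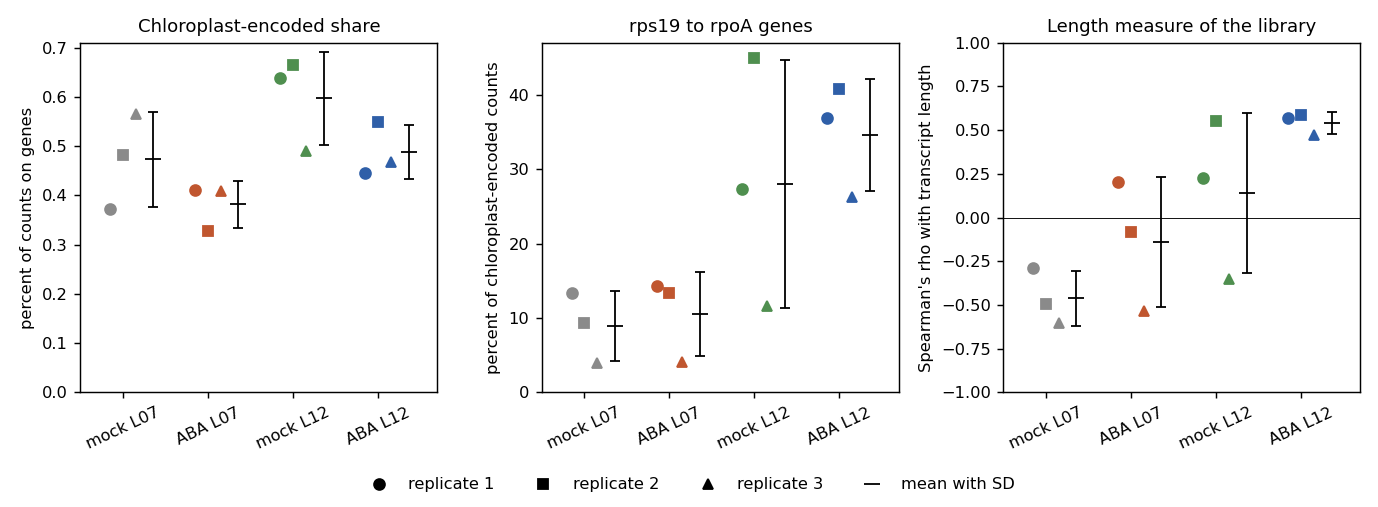
Share of counts on chloroplast rows, share of chloroplast counts on the 9 genes from rps19 to rpoA, and the length measure (Spearman's rho, across nuclear genes, of a library's deviation with transcript length) in each of the 12 libraries by group; symbols mark the replicate number, bars the mean with SD (n = 3). The share of the 9 genes and the length measure are lowest in the third replicate of each group.

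The captured transcripts were uneven. The 10 most abundant members (psbM, psbA, ycf1, rpl16, atpB, rbcL, atpE, rpl32, rpl14 and rps3) took 69.2% to 78.6% of the chloroplast counts in each library, 17 members had a mean above 1000 counts, and 31 had a mean under 100. Per kilobase of gene, psbM, a small subunit of photosystem II, stood first with 12222 CPM. It was followed by rpl32 (1328 CPM), psaJ, a small subunit of photosystem I (808 CPM), rpl14 (538 CPM) and atpE (536 CPM). For rbcL the value was 190 CPM per kilobase. The genes psbM, rpl32 and psaJ are 105, 159 and 135 bases long, against 1440 for rbcL. Over the 72 named members, Spearman's rho between gene length and CPM per kilobase was -0.34. How far short gene lengths raise these values was not tested. The share of psbM in the chloroplast counts was 23.4%, 34.2% and 43.0% in mock L07, 23.2%, 25.4% and 43.2% in ABA L07, 13.3%, 7.70% and 29.4% in mock L12, and 11.8%, 12.7% and 17.3% in ABA L12. In all 4 groups the third replicate had the highest share.

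The members nearest to the threshold were psbN, an assembly factor of photosystem II (mean 10.5 counts), ATCG00200 (12.83) and rps12, a ribosomal protein (13.42). Just outside it were ATCG00410 (8.917), ATCG00610 (8.25) and ATCG00250 (6.833). Of the 52 rows below the threshold, 29 had no count in any library. Among these 52 are the 10 rows of rpl2, rpl23, ycf2, ndhB and rps7, genes that are present in both copies of the inverted repeat, and none of them held more than 8 counts over the 12 libraries. HTSeq by default leaves out reads that map to both copies, so these genes are not described. The name ycf1 also belongs to ATCG01000, which is below the threshold, beside the member ATCG01130. Whether the member ycf1 lost reads in this way was not tested. Bases are shared, on the same strand, by 3 pairs of members: psbD and psbC (53 bases), rps3 and rpl22 (16 bases) and atpE and atpB (4 bases).

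In old leaves, chloroplast-encoded transcripts of the energy-converting complexes were mostly lower 48 h after ABA, but few of the differences passed the test. Of the 81 members 1 was called lower, atpE, and 0 were called higher (edgeR's quasi-likelihood test, adjusted over 18291 genes, with an adjusted p under 0.01 and a change of over 1 on the log2 scale), where 2.00% of all genes were called lower and 0.935% higher. At an unadjusted p below 0.05, 1 member was higher and 31 were lower, against 13.8% and 14.8% of all genes, and DESeq2 and limma also called 0 higher. At an adjusted p below 0.05, 13 members fell and 0 rose, against 6.63% and 4.88% of all genes. The median log2 fold change of the members was -0.71, beside 0.03 over all genes tested, and 65 of 81 estimates were negative.

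The transcript of atpE, the epsilon subunit of the chloroplast ATP synthase, stood at 379, 269 and 313 CPM in mock L07 and at 153, 132 and 148 CPM in ABA L07. All 3 ABA libraries lay below all 3 mock libraries, and the transcript fell by 1.14 on the log2 scale (standard error 0.20, adjusted p = 0.007). Its neighbour atpB, the beta subunit, stood at 413, 338 and 293 CPM against 227, 205 and 145 CPM, again without overlap, with a log2 fold change of -0.86 (SE 0.19, adjusted p = 0.0186). The other 4 ATP synthase genes, atpA, atpF, atpH and atpI, had estimates between -0.95 and -0.74 and did not pass an adjusted p of 0.05.

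The 3 genes of the ndhC cluster, which encode subunits of the NDH complex, fell together at an adjusted p below 0.05, with log2 fold changes of -1.17 for ndhC (adjusted p = 0.0206), -0.997 for ndhJ (adjusted p = 0.0121) and -0.89 for ndhK (adjusted p = 0.0241). For ndhK the levels were 150, 132 and 169 CPM in mock L07 and 80.2, 64.2 and 103 CPM in ABA L07, with no overlap. None of the other 7 NDH genes measured passed that threshold. The small photosystem II subunits psbK and psbI had log2 fold changes of -1.54 (adjusted p = 0.0158) and -1.40 (adjusted p = 0.0306), and petA, which encodes cytochrome f, one of -0.98 (adjusted p = 0.0416). For psbK the levels of 11.6, 15.9 and 32.8 CPM in mock L07 and 4.08, 4.88 and 12.3 CPM in ABA L07 overlapped, since the third replicate was the highest in both groups, but ABA was lower within each replicate.

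Among the ribosomal protein genes, rpl32 and rpl16 fell at an adjusted p below 0.05. For rpl32 the levels were 308, 293 and 481 CPM in mock L07 and 89.2, 107 and 207 CPM in ABA L07 (log2 fold change -1.48, SE 0.31, adjusted p = 0.0155). For rpl16 they were 227, 314 and 212 CPM against 178, 168 and 103 CPM (log2 fold change -0.77, SE 0.20, adjusted p = 0.0327). Neither gene's groups overlapped. The remaining members past that threshold were cemA, a protein of the chloroplast envelope (-1.14, adjusted p = 0.0357), ATCG00090 (-1.70, adjusted p = 0.018) and ATCG00950 (-1.71, adjusted p = 0.0435).

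The reaction centre genes of photosystem I had estimates of the other sign. For psaA the levels were 13.2, 16.2 and 12.5 CPM in mock L07 and 46.7, 22.7 and 16.3 CPM in ABA L07, and the log2 fold change was 0.93 (SE 0.38, adjusted p = 0.135). It was higher in each replicate, but the difference did not pass the test. For psaB the levels overlapped, with 14.8, 22.0 and 21.2 CPM against 45.7, 23.3 and 15.5 CPM (0.45, adjusted p = 0.484). The most abundant photosystem II transcripts were not called: psbM stood at 919, 2142 and 3974 CPM against 787, 722 and 2103 CPM (-0.96, adjusted p = 0.124) and psbA, the D1 protein, at 232, 642 and 1150 CPM against 375, 300 and 615 CPM (-0.59, adjusted p = 0.369). Likewise rbcL, the large subunit of Rubisco, stood at 59.9, 425 and 638 CPM against 152, 129 and 204 CPM (-1.06, adjusted p = 0.239), where the first mock library was the lowest of the 6.

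Groups that did not overlap were counted for 11 members that were lower and 1 that was higher in ABA L07, against 9.59% and 9.86% of all genes. In all 3 replicates 31 members were lower, a count for which no share over all genes was taken. Without the replicate block, with library size as the only scaling, or with upper-quartile factors, 0 members were called, while DESeq2 called 8, all lower. Scaling by library size moved the median of all genes to 0.49 and that of the members to -0.22, and the distance between the medians was -0.70, beside -0.74 with TMM factors. The call of atpE did not hold when any 1 of the 6 old-leaf libraries, mock L12 replicate 1 or ABA L12 replicate 1 or 2 was left out (adjusted p between 0.0119 and 0.041), nor with the length measure as a covariate (log2 fold change -0.94, adjusted p = 0.037). The count of members called was then 0, except that 1 (rbcL) was called without mock L07 replicate 1, and it was 2 without mock L12 replicate 3 or ABA L12 replicate 3 and 4 without mock L12 replicate 2.

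In young leaves the same direction was seen, and again few members passed the test. Of the 81 members 2 were called lower, atpA and petA, and 0 were called higher (edgeR), where 3.08% of all genes were called lower and 1.47% higher. At an unadjusted p below 0.05, 0 members were higher and 44 were lower, against 15.9% and 18.3% of all genes, and DESeq2 and limma called 0 higher as well. At an adjusted p below 0.05, 23 members fell and 0 rose, against 9.26% and 5.39% of all genes. The median log2 fold change of the members was -0.85, beside 0.03 over all genes, and 67 of 81 estimates were negative.

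The transcript of atpA, the alpha subunit of the ATP synthase, stood at 50.3, 20.8 and 56.5 CPM in mock L12 and at 11.5, 9.36 and 17.4 CPM in ABA L12. The groups did not overlap, and the transcript fell by 1.69 on the log2 scale (SE 0.29, adjusted p = 0.0049). For petA the levels were 17.3, 7.93 and 25.4 CPM against 5.15, 4.86 and 5.75 CPM, a fall of 1.53 (SE 0.28, adjusted p = 0.0065), also with no overlap. In both genes the second mock library was the lowest of the 3. Of the ATP synthase genes, 5 of 6 fell at an adjusted p below 0.05: atpA, atpH (-1.52), atpF (-1.48), atpE (-0.76) and atpB (-0.70), and atpI had an estimate of -1.01 (adjusted p = 0.0657). The levels of atpB, for example, were 437, 343 and 358 CPM in mock L12 and 239, 247 and 211 CPM in ABA L12.

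In the cytochrome b6f group, petB and petD joined petA below an adjusted p of 0.05, with log2 fold changes of -1.24 and -1.28. Of the 15 photosystem II genes 5 did: psbK (-1.67, adjusted p = 0.0102), psbI (-1.60), psbE, a subunit of cytochrome b559 (-1.50), and its cluster neighbours psbL (-1.39) and psbJ (-1.24). For psbK the levels were 8.62, 4.33 and 22.5 CPM in mock L12 and 2.39, 2.94 and 4.20 CPM in ABA L12, with no overlap. Of the photosystem I group the assembly factor ycf4 (-1.67, adjusted p = 0.027) and the subunits psaC (-1.42) and psaI (-1.37) fell, whereas psaA (0.03) and psaB (-0.15) had estimates near 0.

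Genes of the gene expression machinery had smaller estimates. Of 17 ribosomal protein genes 2 fell at an adjusted p below 0.05, rpl33 (-2.003, adjusted p = 0.033) and rps4 (-1.09), and the median over the 17 was -0.46. Among the genes of the chloroplast RNA polymerase and the splicing factor matK, only matK passed (-1.54, adjusted p = 0.0301), and the 4 polymerase genes lay between -0.10 and 0.27. No NDH gene passed (lowest adjusted p 0.0508, ndhJ), nor did rbcL, at 453, 255 and 550 CPM against 128, 102 and 185 CPM (-1.61, SE 0.55, adjusted p = 0.074), although its groups did not overlap. The transcripts of psbD and psbC, the D2 protein and a core antenna protein of photosystem II, had estimates of 0.08 and -0.17 (adjusted p = 0.781 and 0.615). With the length measure of each library as a covariate, an alternative chosen after seeing the data, the 9 genes from rps19 to rpoA did not have smaller estimates. Their median was -0.71 in L12 instead of 0.20 and -0.83 in L07 instead of 0.01, beside -0.71 and -0.62 over the members. The estimate of psaA in L12 was then -0.64 instead of 0.03. As the length measure also moved with treatment, its part in the difference between roles was not tested.

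In young leaves, 30 members were lower in ABA with no overlap between the groups and 0 were higher, against 16.9% and 13.2% of all genes. In all 3 replicates 52 members were lower, again with no share over all genes counted. Without the replicate block or with library size as the only scaling 0 members were called, and DESeq2 called 16, all lower. Scaling by library size moved the median of all genes to 0.42 and that of the members to -0.44, a distance of -0.86, beside -0.88 with TMM factors. The count of members called depended on single libraries: it was 0 when mock L12 replicate 1 or 3 or ABA L12 replicate 1 or 3 was left out, 1 without ABA L12 replicate 2, 0 without mock L07 replicate 3, 1 without ABA L07 replicate 1 or 3, 7 without mock L07 replicate 1 and 13 without mock L12 replicate 2. With the length measure as a covariate it was 0, and atpA and petA had log2 fold changes of -1.53 and -1.17 (adjusted p = 0.068 and 0.094).

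**Figure D2:**
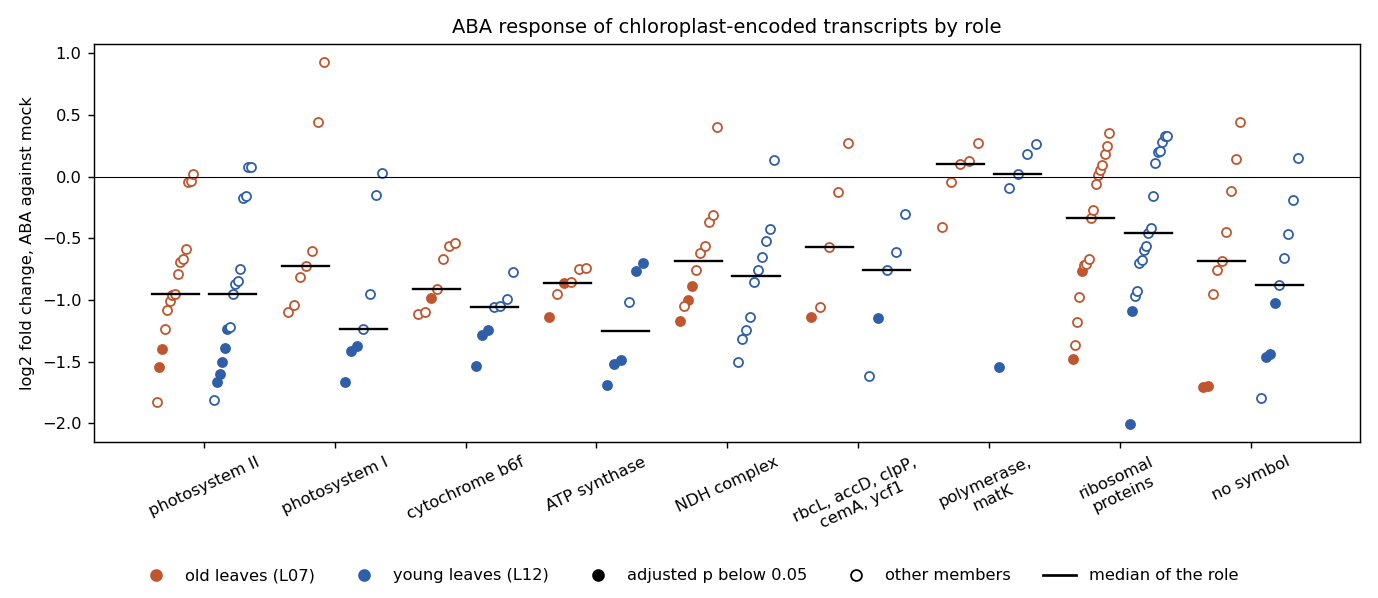
Log2 fold change of ABA against mock (vertical axis) for the 81 members, grouped by role, in old leaves (left of each pair) and young leaves (right); filled points had an adjusted p below 0.05 and black lines mark the median of each role. Medians lie between -0.57 and -1.25 in both leaf ages for all named roles except polymerase and matK (0.11 and 0.02) and ribosomal proteins (-0.34 and -0.46).

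The nuclear-encoded partners of these complexes gave a comparison in the same libraries. All 30 partner subunits listed had negative estimates in both leaf ages, with medians of -1.20 in old and -0.95 in young leaves. In old leaves 3 were called lower: the Rubisco small subunits RBCS2B (-1.97) and RBCS3B (-2.53), and PSAN of photosystem I (-1.79). In young leaves 5 were called lower: RBCS3B (-2.27), PSAN (-1.57), PSAH2 of photosystem I (-1.46), PSBQ1 of photosystem II (-1.36) and ATPD, the delta subunit of the ATP synthase (-1.50). Of all genes, 2.00% were called lower in old and 3.08% in young leaves. At an adjusted p below 0.05, 23 of 30 fell in old and 19 of 30 in young leaves. The shares of all genes that fell at this threshold were 6.63% and 9.26%. Of the 19 mitochondrial rows tested, none passed that threshold in either leaf age (0 at an unadjusted p below 0.05), with medians of -0.13 and -0.03.

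The difference between the 2 ABA responses was tested directly. Of the 81 members 0 were called in either direction (edgeR), as were 0 of 18291 genes (0%). DESeq2 and limma called 0 members as well, although DESeq2 called 29 genes higher and 6 lower. At an unadjusted p below 0.05, 0 members were higher and 1 was lower, against 3.43% and 4.00% of all genes. It was atpA, whose response was lower by 0.94 on the log2 scale in young leaves (SE 0.40, adjusted p = 0.657). The next smallest p-values among lower estimates belonged to matK (-1.13) and ycf4 (-1.06), and the smallest among higher ones to rpl32 (0.78), ndhK (0.46) and atpE (0.37), all with an adjusted p of 0.7115 or above. The median over the members was -0.20, and it changed sign to 0.28 when replicate 1 of every group was left out and to 0.08 without mock L07 replicate 1 alone. A difference in the ABA response by leaf age was therefore not detectable for any member at this depth and number of replicates, which does not show that the responses were alike.

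The largest differences among the members lay between the leaf ages. In mock-treated leaves 12 members were called higher in young than in old leaves and 0 lower (edgeR), where 6.81% of all genes were called higher and 8.10% lower. At an unadjusted p below 0.05, 15 were higher and 13 lower, against 26.8% and 25.1% of all genes. DESeq2 called 15 higher and 2 lower, and limma called 12 and 0. The median log2 fold change of the members was -0.10, beside 0.04 over all genes, and with library size as the only scaling these medians were 0.25 and 0.39. The median of the members changed sign when 1 library was left out, to 0.16 without mock L12 replicate 2, 0.11 without mock L07 replicate 3 and 0.09 without mock L07 replicate 2, and it was -0.42 without mock L07 replicate 1. This comparison shares its mock libraries with the ABA comparisons.

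Of the 12 members called, 8 belong to 1 run of 9 neighbouring genes on the minus strand, from rps19 to rpoA, which encodes proteins of both ribosomal subunits and the alpha subunit of the chloroplast RNA polymerase. Among these 8, the log2 fold changes were 2.68 for rpl36 (SE 0.46, adjusted p = 0.0031), 2.45 for rpl22 (adjusted p = 0.0047), 2.06 for rps3, 1.95 for rpoA, 1.76 for rpl14 and 1.21 for rpl16. The gene of this run that was not called, rps19, had an estimate of 1.15 (SE 0.64, adjusted p = 0.164). The groups overlapped for rps3 and rpl22, although the young library was higher within each replicate. For rpoA the levels were 28.2, 22.6 and 16.5 CPM in mock L07 and 84.1, 193 and 31.0 CPM in mock L12, with no overlap. For rpl14 they were 119, 136 and 60.9 CPM against 377, 540 and 184 CPM, also with no overlap. In both genes the third replicate was the lowest of its group and the second young library the highest. As a share of all chloroplast counts, the 9 genes took 13.4%, 9.39% and 3.96% in mock L07 and 27.4%, 45.0% and 11.6% in mock L12, so that the third young library lay within the range of the old ones. In ABA-treated leaves the shares were 14.4%, 13.3% and 4.05% in L07 and 36.9%, 40.8% and 26.3% in L12, without overlap.

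The other 4 members called lie apart from that run. Neighbours on the minus strand are ndhH, an NDH subunit (2.21, adjusted p = 0.0027), rps15, a ribosomal protein (1.86, adjusted p = 0.0036, with overlapping groups, and named after its values were seen) and ycf1, a component of the protein import machinery of the inner envelope (1.74, SE 0.24, adjusted p = 0.0017). For ycf1 the levels were 170, 282 and 107 CPM in mock L07 and 681, 903 and 310 CPM in mock L12, and for ndhH 6.25, 8.26 and 5.38 CPM against 35.4, 62.8 and 10.7 CPM, with no overlap in either. The fourth was psaA, at 13.2, 16.2 and 12.5 CPM against 67.1, 51.0 and 29.4 CPM (1.75, SE 0.38, adjusted p = 0.0069), where its cotranscribed neighbour psaB followed with 1.36 (adjusted p = 0.0222). The polymerase genes rpoC2 (1.76, adjusted p = 0.016) and rpoB (1.47, adjusted p = 0.015) were also higher at an adjusted p below 0.05, and all 5 genes of the polymerase and matK group had positive estimates. Both polymerase genes were named after their values were seen.

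At an adjusted p below 0.05, 15 members were higher and 6 lower in young leaves, against 21.2% and 20.0% of all genes. The 6 were psbA (-1.26, adjusted p = 0.0375), psbM (-1.18, adjusted p = 0.0314), psbK (-0.88, adjusted p = 0.0492), ndhK (-0.82, adjusted p = 0.0138), ndhJ (-0.77, adjusted p = 0.0131) and ndhC (-0.74, adjusted p = 0.0445). For psbM the levels of 919, 2142 and 3974 CPM in mock L07 and 787, 445 and 1924 CPM in mock L12 overlapped, and the young library was lower within each replicate. For ndhK they did not overlap, at 150, 132 and 169 CPM against 86.7, 52.2 and 130 CPM. Groups that did not overlap were counted for 12 members that were higher and 3 that were lower, against 14.1% and 17.3% of all genes.

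The length measure and the base composition of the members moved with these differences. Over the 72 named members, which share the same libraries and in part the same primary transcripts, Spearman's rho between the log2 fold change of young against old and the share of A in the gene was 0.52, and that with gene length was 0.44. For the ABA response, rho with gene length was 0.51 in old leaves and rho with the share of A was 0.40 in young leaves. With the length measure of each library as a covariate, an alternative chosen after seeing the data, the median log2 fold change of the 9 genes from rps19 to rpoA was 0.92 instead of 2.06, their lowest -0.92, and 0 members were called. That fit left 5 residual degrees of freedom and called 0 of all genes higher and 1 lower, and the length measure itself reached an adjusted p below 0.05 in 0 of 81 members and 0 of 18291 genes. Its coefficient was positive in 9 of the 9 genes, which are neighbours and not independent, and in 31 of the 81 members. The medians were 2.41 and -0.37 per unit of rho. Its smallest unadjusted p among the members in this edgeR fit was 9.52e-06, for rpl22 (adjusted p = 0.1168). Its part in the difference between leaf ages was otherwise not tested.

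Without the replicate block 0 members were called, and with only the 6 mock libraries 5 were, among them psaA, rpl36, rpl14 and ycf1. The count also depended on single libraries, with 0 members called without mock L07 replicate 3, 2 higher (rpl14 and ycf1) and 1 lower (psbA) without mock L07 replicate 1, 3 higher (rpl14, rpl16 and ycf1) without mock L07 replicate 2, and 6 without mock L12 replicate 2, while the median of the 9 genes from rps19 to rpoA lay between 1.60 and 2.43 when any 1 library was left out. Of 19 mitochondrial rows, 7 were called lower and 0 higher in young leaves, against 8.10% and 6.81% of all genes, with a median of -1.66. Their mean share of the counts was 0.0157% in mock L07 and 0.0194% in mock L12, with overlapping groups. Of the nuclear genes for chloroplast transcription, 10 of 20 were called higher in young leaves and 0 lower, among them RPOTp, a phage-type RNA polymerase of the chloroplast (2.72, adjusted p = 0.002), PAP3 (3.09), PAP5 (2.81), PAP7 (2.38) and PAP1 (2.22), which are proteins associated with the chloroplast-encoded polymerase, and the sigma factors SIG2 (1.99) and SIG6 (1.35). Of 6 genes for chloroplast RNA processing and decay, PNPase (2.25), RNase J (2.86), RNase E (1.84) and RNR1 (1.66) were called higher. Both lists stand beside 6.81% of all genes called higher. The levels of RNase J were 6.92, 4.29 and 1.93 CPM in mock L07 and 24.4, 74.7 and 10.4 CPM in mock L12. With the length measure as a covariate 0 of all genes were called higher, and its part in these nuclear calls was not tested. With ABA, 1 of the 20 transcription genes was called higher in old leaves (RPOTp, 2.60) and 0 in young leaves. Of all genes, 0.935% and 1.47% were called higher. At an unadjusted p below 0.05, 13 of the 20 were higher and 1 lower in old leaves, against 13.8% and 14.8% of all genes. In young leaves 8 were higher and 1 lower, against 15.9% and 18.3%. At an adjusted p below 0.05, 7 of the 20 were higher and 0 lower in old leaves, against 4.88% and 6.63% of all genes. In young leaves 1 was higher and 1 lower, against 5.39% and 9.26%. Of the 6 processing and decay genes 0 were called with ABA in either age (edgeR). At an unadjusted p below 0.05, 3 and 2 were higher and 1 and 1 lower, beside the same shares of all genes at that threshold.

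**Figure D3:**
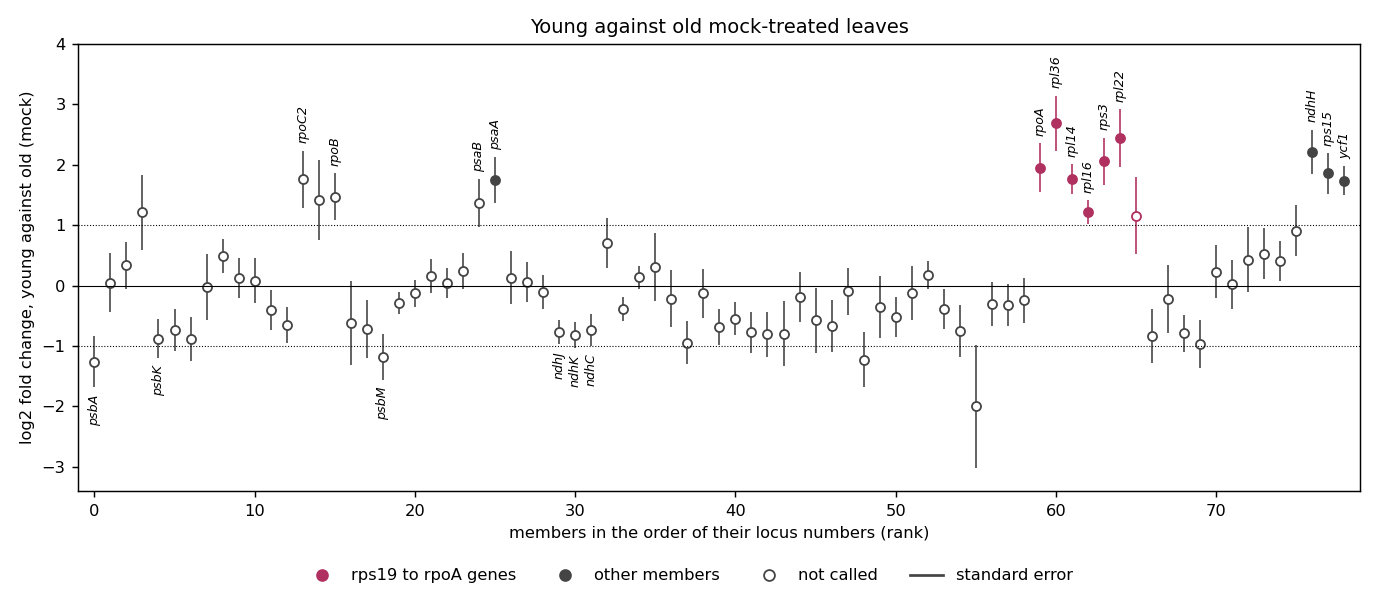
Log2 fold change of young against old mock-treated leaves (vertical axis, with standard error) for the members in the order of their locus numbers (horizontal axis, rank among those shown; 2 members are not shown); filled points were called, and names mark members with an adjusted p below 0.05. The genes shown from rps19 to rpoA lie between 1.15 and 2.68, and ndhH, rps15 and ycf1 form a second group of neighbours above 1.

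**Figure D4:**
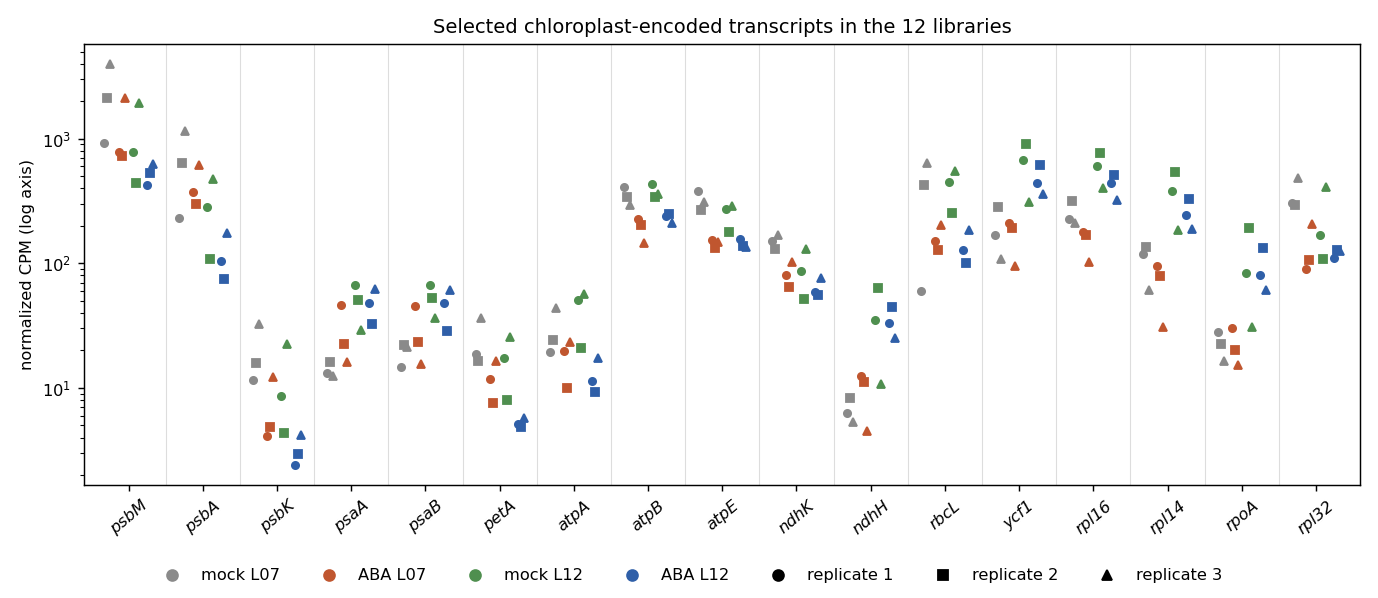
Normalized CPM (log axis) of 17 members in the 12 libraries; colours mark the 4 groups and symbols the replicate number. The levels of rpl14, ycf1 and ndhH are higher in young than in old leaves of the same treatment, atpB and atpE are lower in both ABA groups, and psbM and psbA vary by replicate.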

How the data were processed

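The values that the authors deposited are whole-number read counts per gene, without normalization. Per the labels and the methods, strand-specific libraries were made from poly(A)-enriched RNA with the NEBNext Ultra Directional kit, and reads were processed with CASAVA 1.8.2 and cutadapt 1.5, mapped to TAIR10 with TopHat2 2.0.10 at default settings and counted with HTSeq 0.6.1. The mode and strand setting of HTSeq is not given in the sources used here, so reads of overlapping genes may be assigned either way. HTSeq's summary lines (5.97% to 10.3% of all lines of a library) were left out.

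Counts were scaled with TMM factors, which were also used for the CPM printed. Of 32678 genes, the 18291 whose mean over the 12 libraries reached 10 counts were kept. A model of the 4 groups, blocked by replicate number as in the study, was fitted to all libraries with edgeR 4.0.16 (quasi-likelihood, R 4.3.3, prior count 0.125), with Benjamini-Hochberg adjustment over all genes. A gene was called where its adjusted p was under 0.01 and its change exceeded 1 on the log2 scale. The log2 fold change was ABA minus mock, or young minus old. Same-numbered libraries of different groups deviated together in 16 of 18 pairs (r over 0.1, median 0.425), against a median of -0.25 in 36 differently numbered pairs, and no 2 libraries of a group were copies (chi-square per degree of freedom 30.5 to 257). The labels do not say that replicates came from separate plants, so p-values measure the spread between these samples.

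Members and gene lists were chosen with earlier results of these data known. Members named are the 10 most abundant, the most abundant of each role, those called (of over 10, the 5 largest changes in each direction), the 3 with the smallest p in each direction of a comparison, and those nearest the threshold. Others were named after their values were seen, and nuclear genes come from the lists. Names of chloroplast locus numbers were written by hand from established usage. Alternatives were DESeq2 1.42.0, limma 3.58.1 with voom, other scalings and filters, no block, only the groups compared, a prior count of 2, a robust dispersion, an adjusted p below 0.05, other denominators of the chloroplast share, and leaving out each replicate number or library. The length measure as a covariate, together with the block, was chosen after seeing the data. The fit was first tested on simulated counts. The single values of 2 members are not reported here.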

Additional observations from a re-analysis of the deposited data

How the results depend on the processing

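The number of members called was sensitive to the processing. Directions were followed only where the main edgeR fit to these same libraries gave an unadjusted p below 0.05. Few sign changes were therefore likely from the outset, and they add no support for these directions. The alternative of an adjusted p below 0.05 keeps the same estimates, so its signs could not change. Of 47 named members and comparisons with a direction (unadjusted p below 0.05), tried under 29 alternatives, the sign changed in 3 values, all with the length measure as a covariate: rpl32 under ABA in L12 (0.013) and, in young against old leaves, psbK (0.11) and rpl32 (0.20). In old leaves under ABA, 0 members were called with library size only, upper-quartile factors, no replicate block, only the groups compared or the length covariate, 8 with DESeq2 and 13 at an adjusted p below 0.05. In young leaves the counts were 0 with library size only, no replicate block, only the groups compared or the length covariate, 16 with DESeq2 and 23 at an adjusted p below 0.05. In young against old leaves they were 0 with no replicate block or the length covariate, 5 with only the groups compared and 21 at an adjusted p below 0.05. Apart from fewer libraries where only the groups were compared, the cause of these changes was not tested. When a replicate number or a library was left out, the counts lay between 0 and 4, 0 and 13, and 0 and 14, and the difference between the responses stayed at 0. The chloroplast share lay between 0.428% and 0.523% in mock L07, 0.368% and 0.410% in ABA L07, 0.564% and 0.651% in mock L12, and 0.457% and 0.509% in ABA L12 when a replicate was left out, and moved by less than 1 SD with either of the other denominators. A mean under 100 counts was found for 31 members, and how far depth limits their calls was not tested.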
